A study of Mus musculus with 12 samples.

Results

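Leukocyte adhesion and endothelial molecules were followed in the terminal ileum of 12 male C57BL/6 mice by 10 genes, Itgal, Itgb2, Itga4, Itgb1, Itga6, Selplg, Vcam1, Icam2, Pecam1 and Cdh5, chosen by symbol from the 556 genes with values on a NanoString immunology panel. The panel counts RNA molecules directly with colour-coded probes. Mice were specific pathogen-free (SPF), and so carried a microbiota, or germ-free (GF), and carried none. PAT mice had been exposed to the macrolide tylosin through their nursing dams from postnatal day 5 for 5 days, whereas control mice received none, and all ileums were taken in week 7. The 4 groups, written SPF control and SPF PAT, then GF control and GF PAT, held 3 mice each, named here by the mouse numbers in the labels. The total count of a mouse ranged from 600308 to 923395, with the SPF control mice the highest (806043 to 923395), and 1 to 8 genes of a mouse were at a count of 0. The labels name no litter, cage or assay cartridge, so p-values measure the spread between these mice and such batches were not examined.

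Leukocytes leave the blood in steps. P-selectin glycoprotein ligand 1, made from Selplg, lets them roll on the vessel wall, and integrins, which are pairs of an alpha and a beta chain, then hold them there. LFA-1 (Itgal with Itgb2) binds ICAM molecules such as that of Icam2, and VLA-4 (Itga4 with Itgb1) binds VCAM-1, the product of Vcam1, while the alpha 4 chain with another beta chain takes lymphocytes to the gut. Itgb1 also pairs with Itga6 as a laminin receptor of epithelium and other cells that rest on a basement membrane. Pecam1 encodes CD31, found at endothelial junctions and on platelets and leukocytes, and Cdh5 encodes VE-cadherin, the cadherin of endothelial junctions.

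The promoters of Itga4 and Itgb1, which encode the 2 chains of VLA-4, are printed because these were the 2 of the 10 genes with a promoter in the table used. The other genes are Itgal, Itgb2, Itga6, Selplg, Vcam1, Icam2, Pecam1 and Cdh5. Each sequence is RefSeq's on GRCm38.p6, 250 bases before to 50 bases after the start of the gene on the plus strand, at chr2:79255176-79255475 for Itga4 and chr8:128685404-128685703 for Itgb1. Capitals mark matches to the motifs searched.
Itga4 promoter: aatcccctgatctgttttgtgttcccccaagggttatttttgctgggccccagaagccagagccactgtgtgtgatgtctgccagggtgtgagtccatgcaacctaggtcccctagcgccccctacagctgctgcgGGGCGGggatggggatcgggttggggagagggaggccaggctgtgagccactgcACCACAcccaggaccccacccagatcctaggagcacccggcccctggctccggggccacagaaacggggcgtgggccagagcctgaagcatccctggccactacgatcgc
Itgb1 promoter: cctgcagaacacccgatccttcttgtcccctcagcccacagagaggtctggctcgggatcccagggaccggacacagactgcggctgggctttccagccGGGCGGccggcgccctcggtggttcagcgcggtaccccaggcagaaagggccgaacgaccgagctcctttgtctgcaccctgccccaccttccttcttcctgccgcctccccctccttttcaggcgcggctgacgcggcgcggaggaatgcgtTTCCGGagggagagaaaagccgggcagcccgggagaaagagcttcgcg

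The motifs, on both strands, were a GC box (GGGCGG), an ETS site (CCGGAA), a PU.1 site (GAGGAAG), a Runx site (TGTGGT) and a TATA box (TATAAA). The Itga4 promoter held 1 GC box and 1 Runx match, and the Itgb1 promoter held 1 GC box and 1 ETS match. Of 32851 mouse promoters of the same length, 35.7% held the GC box, 14.9% the ETS letters and 16.8% the Runx letters, so that each match is a common one. The PU.1 and TATA letters, each in 13.6% of promoters, were in neither window. The CpG content differed, with 10 CpG in the Itga4 window and 27 in that of Itgb1, against a median of 7 in all promoters. Fewer CpG were found in 56.5% and 84.5% of promoters, respectively.

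The labelled tissue was checked first. The epithelial genes Pigr, Itln1 and Ccl25 had counts of 25041 to 80927, 52457 to 96536 and 12221 to 23315 in the 12 mice, as in an ileal sample. Endothelium was represented, beside the 10 genes, by Cd34 at counts of 514 to 754, while Sele, an endothelial selectin, lay between 0 and 7. Of the 10 genes, 9 had a mean normalized count of at least 20. Selplg had counts of 1 to 20, so its values are given as counts. Levels of different genes are not set against each other, because probe counts have no common scale per length. In bulk tissue, fewer cells of a type and less RNA per cell cannot be told apart.

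Control mice with and without a microbiota were compared first. The SPF litters were bred from purchased parents and the GF mice came from a separate germ-free colony, so that colony origin and microbiota cannot be told apart in this comparison. Expression of both LFA-1 chains and of Itga4 was higher in SPF control ileum, by 3.75-fold for Itgal, 2.04-fold for Itgb2 and 1.74-fold for Itga4. Expression of Cdh5 and Itga6 was lower, by 1.70-fold and 1.72-fold. Thus 3 of 10 genes rose, where 19.4% of all 556 genes did, and 2 fell, where 22.7% of all genes did (limma, Benjamini-Hochberg adjusted p under 0.05 over the 556 genes). The median difference was 0.47 on the log2 scale for the 10 genes and 0.08 for all genes. The plot of the 10 genes by mouse shows every value behind these differences.

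**Figure D1:**
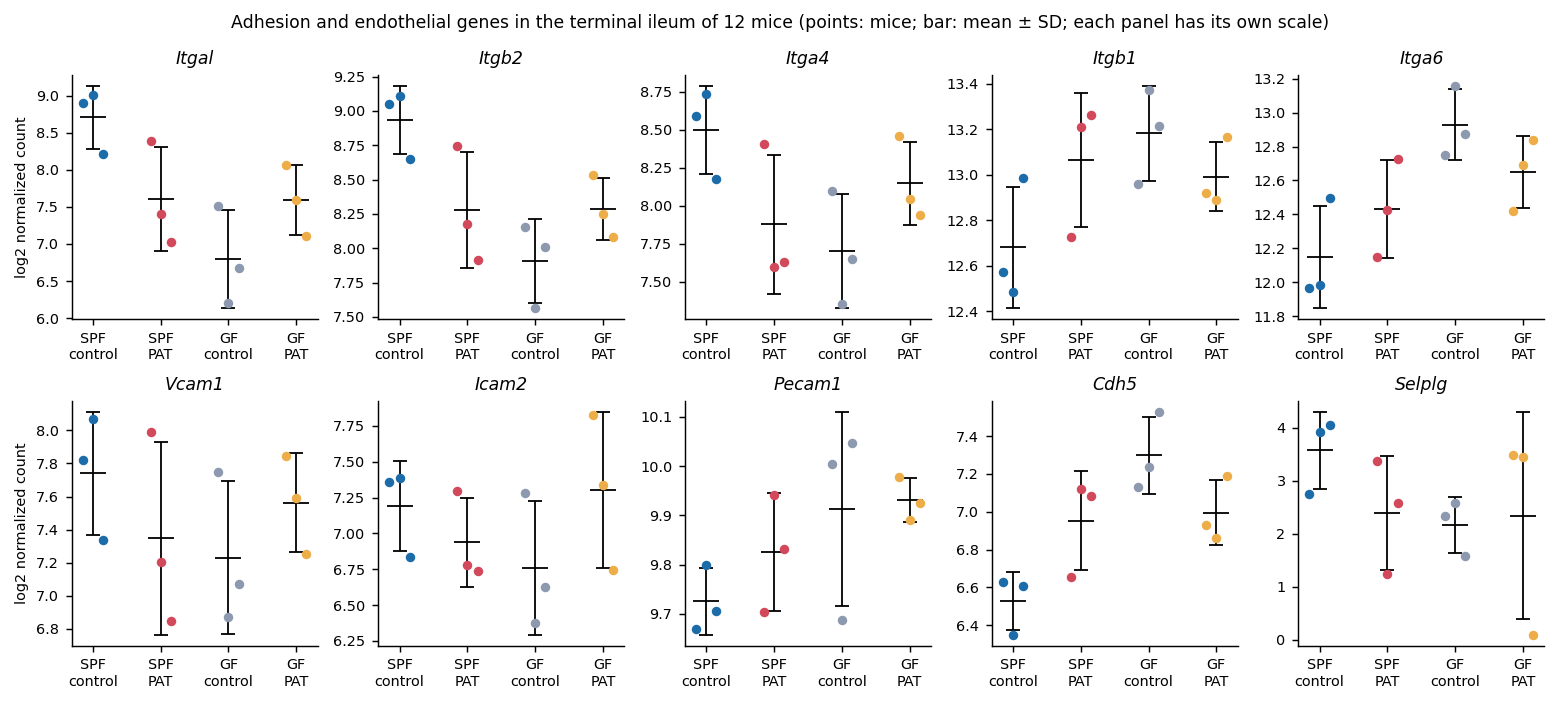
Log2 normalized count (vertical axis) of the 10 genes in the 4 groups of mice; points are mice, the long bar is the mean and the whiskers are the SD (n = 3). Itgal, Itgb2 and Itga4 lay higher in all 3 SPF control mice than in the 3 GF control mice, whereas Itga6 and Cdh5 lay lower.

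Itgal, the alpha chain of LFA-1, measured 8.90, 9.0 and 8.22 (log2 normalized count) in SPF control mice 2, 7 and 8, and 7.51, 6.20 and 6.68 in GF control mice 37, 38 and 39. The groups did not overlap, with mouse 8 the lowest of its group and mouse 37 the highest of its own. The means were 8.71 ± 0.426 and 6.80 ± 0.665 (SD, n = 3), a log2 difference of 1.91 (SE 0.44, limma adjusted p = 0.00677). Itgb2, the beta chain shared by LFA-1 and the myeloid integrins, measured 9.05, 9.11 and 8.65 in the same SPF control mice and 8.15, 7.56 and 8.01 in the GF control mice. These groups were also apart, and mice 8 and 37 again sat nearest to the other group. The log2 difference of Itgb2 was 1.03 (SE 0.25, limma adjusted p = 0.00816).

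Itga4 measured 8.59, 8.73 and 8.18 (log2 normalized count) in SPF control mice 2, 7 and 8, and 8.10, 7.36 and 7.65 in GF control mice 37, 38 and 39. The gap between the groups was narrow, from 8.10 to 8.18, and the log2 difference was 0.80 (SE 0.28, limma adjusted p = 0.0410). Itgb1, its partner, measured 12.57, 12.48 and 12.99 in the SPF control mice and 12.96, 13.38 and 13.21 in the GF control mice. For Itgb1 the groups overlapped at mice 8 and 37, with a log2 difference of -0.50 (SE 0.19, limma adjusted p = 0.0627), which did not pass the threshold. Itgb1 did pass in 8 alternatives, and in 14 it did not. The 8 were an intensity trend, the minimum count, median centring, total scaling, voom, and leaving out SPF control mouse 8, SPF PAT mouse 21 or GF control mouse 37 (limma adjusted p from 0.00955 to 0.0493).

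Itga6, the laminin receptor chain, measured 11.97, 11.98 and 12.50 (log2 normalized count) in SPF control mice 2, 7 and 8, and 12.75, 13.16 and 12.88 in GF control mice 37, 38 and 39. The groups were apart, with a log2 difference of -0.78 (SE 0.21, limma adjusted p = 0.0136). Cdh5 measured 6.63, 6.35 and 6.61 in the SPF control mice and 7.13, 7.23 and 7.53 in the GF control mice. Every SPF control mouse was below every GF control mouse, with means of 6.53 ± 0.154 and 7.30 ± 0.206 (SD, n = 3) and a log2 difference of -0.77 (SE 0.17, limma adjusted p = 0.00589).

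Vcam1, Icam2 and Pecam1 did not pass the threshold. Vcam1, the ligand of VLA-4, was 7.33 to 8.07 in SPF control and 6.87 to 7.75 in GF control mice, a log2 difference of 0.51 (SE 0.34, limma adjusted p = 0.241). Icam2, a ligand of LFA-1 on resting endothelium, was 6.83 to 7.39 and 6.38 to 7.28, a log2 difference of 0.43 (SE 0.32, limma adjusted p = 0.292). Pecam1 had the smallest spread within groups of the 10 genes, with a pooled SD of 0.122 against a median of 0.301 for all genes. Its values were 9.67 to 9.80 in SPF control and 9.69 to 10.05 in GF control mice, with a log2 difference of -0.19 (95% interval -0.46 to 0.09, limma adjusted p = 0.233). Pecam1 passed in 1 alternative, median centring (log2 difference -0.63, limma adjusted p = 0.0338).

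Selplg had counts of 8, 19 and 20 in SPF control mice 2, 7 and 8, and of 5, 5 and 3 in GF control mice 37, 38 and 39. The groups were apart at these low counts, but the log2 difference of 1.40 had an SE of 0.89 (limma adjusted p = 0.224). By non-overlap alone, 4 of 10 genes were higher in every SPF control mouse than in every GF control mouse, where 25.4% of all genes were, and 2 were lower, where 26.8% of all genes were.

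The calls for Itgal, Itgb2 and Cdh5 held without any single mouse, whereas those for Itga4 and Itga6 did not. The number of genes called fell from 5 to 3 without SPF control mouse 2, SPF control mouse 7 or GF control mouse 38, and Itga4 also lost its call without GF control mouse 39, GF PAT mouse 42 or GF PAT mouse 43 (limma adjusted p up to 0.144 without 1 mouse). With the analysis of variance and Tukey test of the study's methods, the call remained for 1 gene, Cdh5 (adjusted p = 0.0328).

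SPF PAT mice were then set against SPF control mice, which asked what the early tylosin course did in colonized mice, and this comparison shares the SPF control mice with the one above. None of the 10 genes passed the threshold, where 14% of all genes rose and 12.2% fell (limma, adjusted p under 0.05). At an unadjusted p under 0.05 there were 4 of 10 genes, Itgal, Itgb2, Itga4 and Cdh5, and 233 of the 556. The median log2 difference was -0.32 for the 10 genes and -0.02 for all genes.

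**Figure D2:**
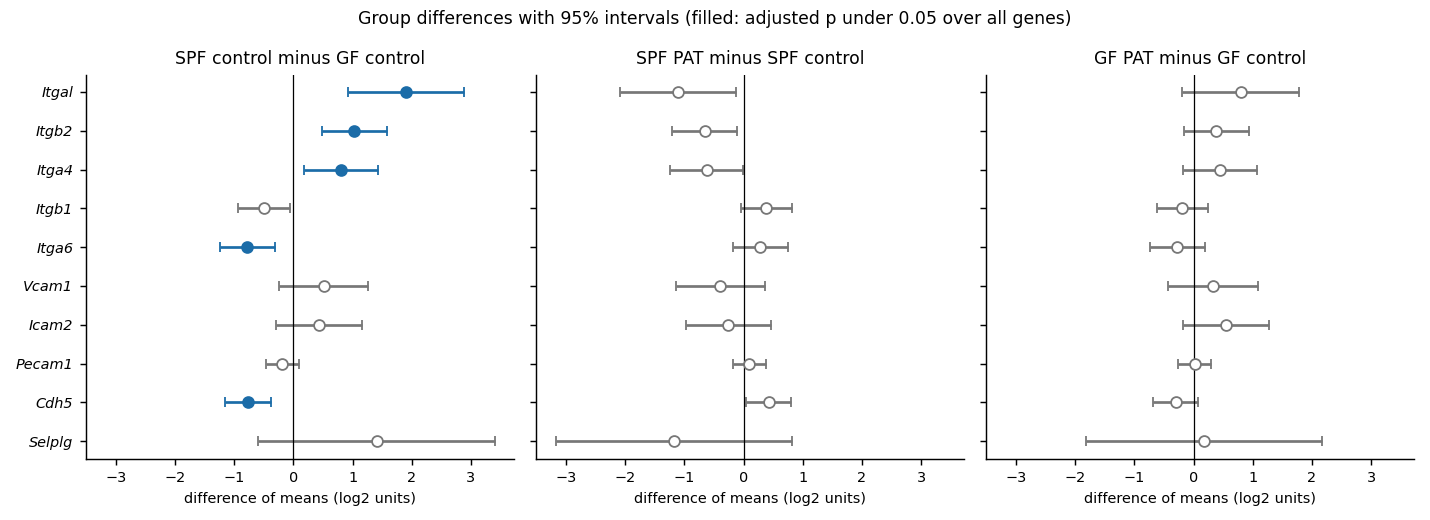
Difference of group means in log2 units (horizontal axis) for the 10 genes in 3 comparisons, with 95% intervals from limma; filled points passed an adjusted p of 0.05 over 556 genes. The 5 filled points are all in SPF control minus GF control, and every interval crosses 0 in GF PAT minus GF control.

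Itgal measured 8.39, 7.40 and 7.03 log2 normalized counts in SPF PAT mice 21, 26 and 27. Mouse 21 was above SPF control mouse 8, so the groups overlapped, and the log2 difference was -1.10 (SE 0.44, limma adjusted p = 0.0884). Itgb2 measured 8.74, 8.18 and 7.92 in these mice, and mouse 21 again overlapped the controls, with a log2 difference of -0.66 (SE 0.25, limma adjusted p = 0.0722). Itga4 measured 8.41, 7.60 and 7.63, in the same order of mouse 21 against the others, with a log2 difference of -0.62 (SE 0.28, limma adjusted p = 0.118).

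Cdh5 was the exception to this overlap. It measured 6.65, 7.12 and 7.08 log2 normalized counts in SPF PAT mice 21, 26 and 27, and all 3 were above the highest SPF control mouse at 6.63, a gap of less than the SD of either group. The log2 difference was 0.42 (SE 0.17, limma adjusted p = 0.0910). It was the 1 gene of 10 that was higher in every SPF PAT mouse, where 22.8% of all genes were, and none of the 10 was lower in every SPF PAT mouse, where 18.2% of all genes were. Itgb1 measured 12.73, 13.21 and 13.26, with mouse 21 below SPF control mouse 8 (log2 difference 0.39, SE 0.19, limma adjusted p = 0.159). Itga6 was 12.15 to 12.73, with a log2 difference of 0.28 (SE 0.21, limma adjusted p = 0.306).

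Vcam1, Icam2 and Pecam1 in SPF PAT mice lay at 6.85 to 7.99, 6.74 to 7.30 and 9.70 to 9.94. Their log2 differences from SPF control of -0.39, -0.26 and 0.10 had limma adjusted p of 0.383, 0.546 and 0.528. Selplg had counts of 11, 2 and 5 in SPF PAT mice 21, 26 and 27, with a log2 difference of -1.18 (SE 0.89, limma adjusted p = 0.325).

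SPF PAT mouse 21 decided the number of calls. Without it, 5 of 10 genes passed the threshold, where 41.7% of all genes did. Itgal, Itgb2 and Itga4 then fell by 1.49, 0.89 and 0.89 on the log2 scale (limma adjusted p = 0.0257, 0.0195 and 0.0285), and Cdh5 and Itgb1 rose by 0.57 and 0.56 (limma adjusted p = 0.0278 and 0.0443). Without any other single mouse none of the 10 genes passed. With each mouse scaled to its total normalized count, Cdh5 and Itgb1 passed.

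Germ-free mice given the same course were compared with GF control to ask what tylosin did without a microbiota. Of the 10 genes none passed, and none of the 556 did (0% called; limma), with 0 of 10 and 28 of 556 at an unadjusted p under 0.05. Itgal measured 8.06, 7.60 and 7.11 log2 normalized counts in GF PAT mice 41, 42 and 43, within reach of the highest GF control mouse at 7.51 (log2 difference 0.79, SE 0.44, limma adjusted p = 0.693). Itgb2 was 8.08 to 8.53, Itga4 was 7.94 to 8.46 and Cdh5 was 6.86 to 7.19, with log2 differences of 0.38, 0.45 and -0.30 (limma adjusted p = 0.693 for each). Itgb1 and Itga6 differed by -0.19 and -0.28, and Vcam1 and Icam2 by 0.33 and 0.54.

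Pecam1 in GF PAT mice was 9.89 to 9.98, a log2 difference of 0.02 with a 95% interval of -0.26 to 0.29. Selplg had counts of 12, 11 and 1 in GF PAT mice 41, 42 and 43, the widest spread of the 10 genes. For all 10 genes GF PAT and GF control mice overlapped, where 4.5% of all genes were higher and 7.55% were lower in every GF PAT mouse.

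The difference between the 2 PAT effects, that in SPF minus that in GF mice, tests whether the response to tylosin differed between SPF and GF mice. Colony origin and microbiota cannot be told apart in it either. The difference passed for none of the 10 genes, where 17.1% of all genes passed (limma). The difference was -1.89 for Itgal (SE 0.62), -1.04 for Itgb2 (SE 0.35) and 0.73 for Cdh5 (SE 0.24), each with a limma adjusted p of 0.0611, and -1.07 for Itga4 (SE 0.39, limma adjusted p = 0.0776). At an unadjusted p under 0.05 these 4 genes were found, and 211 of the 556. Calls appeared when 1 mouse was left out, with 5 genes without SPF PAT mouse 21, where 39% of all genes passed, 2 without SPF control mouse 8 and 2 without GF control mouse 37. Calls also appeared for 3 genes, Itgal, Itgb2 and Cdh5, when genes with a mean normalized count under 20 were left out before the p-values were adjusted.

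SPF PAT mice were also set against both germ-free groups, where colony origin and microbiota again cannot be told apart. None of the 10 genes passed against GF control, where 2.16% of all genes did, or against GF PAT, where 1.44% did (limma). At an unadjusted p under 0.05 there was 1 gene of 10 against GF control, Itga6 (log2 difference -0.50, SE 0.21, adjusted p = 0.444), and none against GF PAT. Of the 556 genes, 61 and 56 were found in these 2 comparisons. Itga6 and Cdh5 were lower in every SPF PAT mouse than in every GF control mouse, and neither passed (limma adjusted p = 0.444 and 0.549). The share of all genes without overlap was not computed for this comparison. Itgal in SPF PAT mice was 0.81 above GF control (95% interval -0.17 to 1.79) and 0.02 above GF PAT (95% interval -0.96 to 1.0), so differences of either sign remained within the error. Over the 4 groups together, the limma F-test passed for Itgal, Itgb2 and Cdh5 (adjusted p = 0.0377, 0.0420 and 0.0338), that is 3 of 10 genes where 33.1% of all genes passed. The F-test passed for none of the 10 without SPF control mouse 2, SPF control mouse 7, GF control mouse 38, GF control mouse 39 or GF PAT mouse 42, and for 1 without SPF PAT mouse 26 or GF PAT mouse 41.

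The same mice stood out in gene after gene. For Itgal, Itgb2, Itga4, Vcam1 and Icam2, SPF control mouse 8 was the lowest of its group, and SPF PAT mouse 21, GF control mouse 37 and GF PAT mouse 41 were the highest of theirs. Ptprc, which encodes the pan-leukocyte antigen CD45, was ordered likewise, at 10.28, 10.39 and 9.21 (log2 normalized count) in SPF control mice 2, 7 and 8 and at 9.94, 8.59 and 8.34 in SPF PAT mice 21, 26 and 27. It was 9.45, 8.40 and 8.66 in GF control mice 37, 38 and 39, and 9.88, 9.15 and 8.94 in GF PAT mice 41, 42 and 43. All 9 B cell genes were measured, and their summed normalized count was 1306 in SPF control mouse 8 against 6361 and 7214 in mice 2 and 7, and 6216 in SPF PAT mouse 21 against 884 and 886 in mice 26 and 27. It was 3834, 1158 and 923 in GF control mice 37, 38 and 39, and 6168, 3765 and 2131 in GF PAT mice 41, 42 and 43. No B cell gene was at a count of 0 in any mouse, with the lowest count, 2, in Cr2, and the part of B cells in the differences was not tested.

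**Figure D3:**
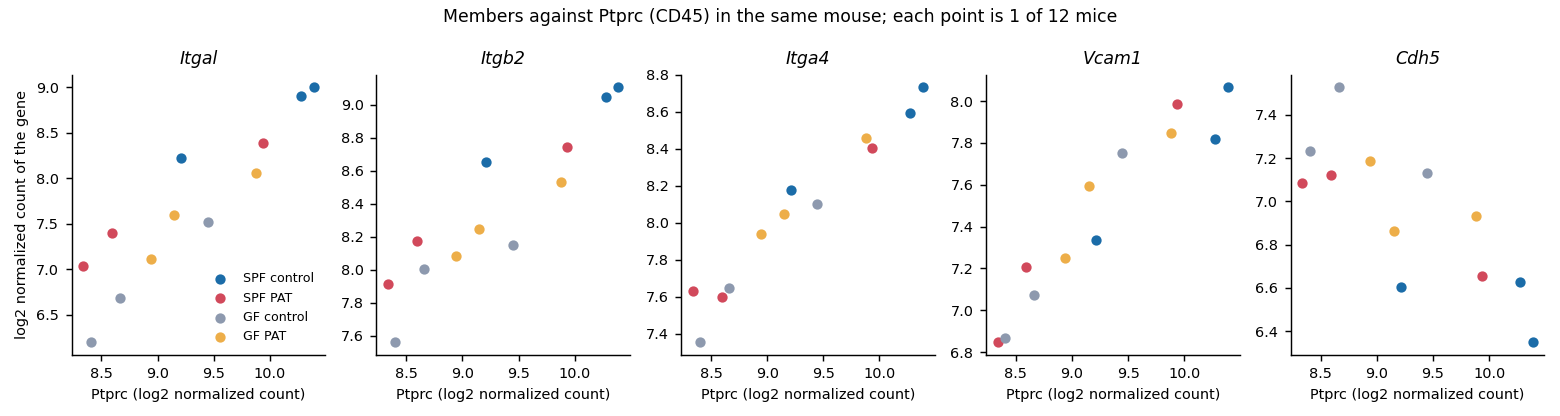
Log2 normalized count of 5 genes (vertical axes) against that of Ptprc (horizontal axes) in the same mouse; each point is 1 of 12 mice, coloured by group. Itgal, Itgb2, Itga4 and Vcam1 were high where Ptprc was high. The lowest value of Cdh5, 6.35, was in the mouse with the highest Ptprc, 10.39. Cdh5 was also low, at 6.61, in SPF control mouse 8, where Ptprc was 9.21.

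Markers of other leukocytes were examined next. Of 11 T cell genes measured, 7 were higher in SPF control than in GF control, where 19.4% of all genes were, and none was lower. In SPF PAT against SPF control 6 of the 11 fell, where 12.2% of all genes did, whereas neither LFA-1 chain passed there (limma adjusted p under 0.05). Their summed normalized count was 1412 to 2348 in SPF control, 492 to 1455 in SPF PAT, 446 to 1022 in GF control and 626 to 1250 in GF PAT mice. Of 4 neutrophil genes 3 were higher in SPF control than in GF control, where 19.4% of all genes were, and 2 fell in SPF PAT, where 12.2% did. Their counts were low, at 4 to 44 for S100a8, 4 to 65 for S100a9, 11 to 41 for Csf3r and 1 to 16 for Cxcr2. The sums of the 4 were 73.6 to 128, 31.2 to 51.9, 23.4 to 45.8 and 34.5 to 65.4 in the 4 groups in the same order. Of 6 macrophage and dendritic cell genes 1 was higher and 1 lower in SPF control than in GF control, where 19.4% and 22.7% of all genes were. Their sums were 1718 to 2486 and 1428 to 1867. In SPF PAT against SPF control 1 of the 6, Itgam, fell, where 12.2% of all genes did. None of the T cell genes was at a count of 0 in any mouse, and their part in the differences was not tested.

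Markers of the cells in which Itga6 and Pecam1 are also found were examined too. Of 5 epithelial genes 1 was higher and 2 were lower in SPF control than in GF control, where 19.4% and 22.7% of all genes were. Their sums were 123680 to 144640 and 114650 to 131720. Of 3 platelet genes 2 were lower in SPF control than in GF control, Itga2b and Gp1bb, and the sum of the 3 was 804 to 1322 against 1461 to 1655, without overlap. In SPF PAT against SPF control 2 epithelial genes and 1 platelet gene, Itga2b, rose, where 14% of all genes did. None fell, where 12.2% of all genes did. The part of these cells in the values of Itga6 and Pecam1 was not tested.

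Each gene was therefore also expressed relative to Ptprc of the same mouse, a ratio that does not depend on how mice are scaled. On this scale none of the 10 genes passed in SPF control against GF control, where 2.52% of the other genes did, or in SPF PAT against SPF control, where 0% did (limma). Itgal was 0.79 higher relative to Ptprc in SPF control than in GF control mice (SE 0.37, limma adjusted p = 0.122), and the groups did not overlap. Itgb2 and Itga4 differed by -0.09 and -0.32 (SE 0.42 and 0.40). In SPF PAT against SPF control the difference of Itgal was -0.09 (SE 0.37, limma adjusted p = 0.853). At an unadjusted p under 0.05 were Itga6, Itgb1, Pecam1 and Cdh5 in the first comparison, at -1.90, -1.62, -1.31 and -1.89, and Cdh5 in the second, at 1.43. Ptprc itself differed by 1.12 and -1.005 in the 2 comparisons (limma adjusted p = 0.0902 and 0.146). On this scale a gene without change of its own therefore moves the other way. These counts rested on single mice, with 4 genes called in SPF control against GF control without SPF control mouse 8 or SPF PAT mouse 21 and 3 without GF control mouse 37. In SPF PAT against SPF control 5 were called without SPF PAT mouse 21 and 2 without SPF control mouse 8. For Itgal relative to Ptprc, GF PAT and GF control mice did not overlap either (difference 0.31, exact permutation p = 0.1, the lowest possible). On this scale, the share of all genes was not computed for non-overlap, for an unadjusted p under 0.05 or for calls without 1 mouse.

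Partner genes were then compared within each mouse, as differences of their log2 values with the GF control mean set to 0. With 3 mice against 3, the two-sided exact permutation test over 20 relabellings cannot give a p below 0.1. The Itga4 to Itgb1 ratio, that of the VLA-4 chains, was 1.5, 1.73 and 0.67 in SPF control mice 2, 7 and 8, and 1.16, -0.13 and -0.15 in SPF PAT mice 21, 26 and 27. It was 0.62, -0.54 and -0.09 in GF control mice 37, 38 and 39, which did not overlap the SPF control mice, although mice 8 and 37 differed little (difference of means 1.30, exact permutation p = 0.1). SPF PAT overlapped SPF control through mouse 21 (difference -1.01, exact permutation p = 0.2).

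**Figure D4:**
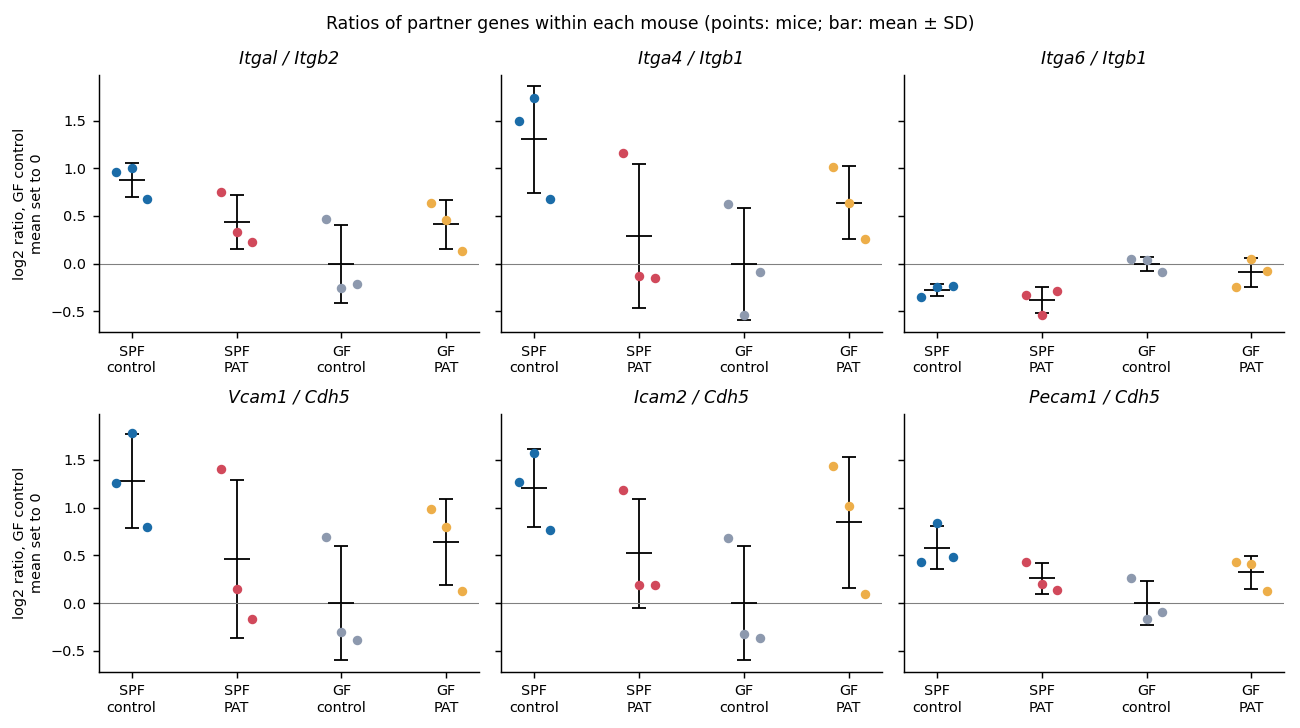
Log2 ratio of partner genes within a mouse (vertical axis, GF control mean set to 0) in the 4 groups; points are mice, the long bar is the mean and the whiskers are the SD (n = 3). SPF control and GF control mice do not overlap in any of the 6 ratios, of which those of Vcam1, Icam2 and Pecam1 divide by Cdh5, itself without overlap. No share over other gene pairs was computed. As single genes, 25.4% of all genes were higher and 26.8% lower in every SPF control mouse. The Itga6 to Itgb1 ratio has the narrowest spread.

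For the LFA-1 chains, the Itgal to Itgb2 ratio was 0.68 to 1.0 in SPF control and -0.26 to 0.47 in GF control mice, which did not overlap (difference 0.88, exact permutation p = 0.1), and 0.23 to 0.76 in SPF PAT mice. Itgb2 also pairs with the myeloid chains Itgam and Itgax. Itgam was higher in SPF control than in GF control by 1.26 on the log2 scale (SE 0.28, limma adjusted p = 0.00629) and fell by 0.90 in SPF PAT against SPF control (SE 0.28, limma adjusted p = 0.0440). Itgax passed in neither comparison, with log2 differences of 0.22 and -0.09 (limma adjusted p = 0.312 and 0.709). The Itga6 to Itgb1 ratio was the tightest, at -0.35 to -0.24 in SPF control, -0.53 to -0.28 in SPF PAT, -0.08 to 0.05 in GF control and -0.24 to 0.05 in GF PAT mice. SPF control was apart from GF control in it (difference -0.28, exact permutation p = 0.1), and SPF PAT overlapped SPF control (difference -0.10, exact permutation p = 0.3).

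Vcam1 and Icam2 shared the mouse order of Ptprc. Relative to Ptprc they differed by -0.61 and -0.69 in SPF control against GF control (limma adjusted p = 0.228 and 0.209). Which cells carried their RNA was not tested, so a ratio to Cdh5 is not a level per endothelial cell. Relative to Cdh5 of the same mouse, Vcam1, Icam2 and Pecam1 were higher in SPF control than in GF control. Vcam1 differed by 1.28 (SE 0.46, limma adjusted p = 0.0421), Icam2 by 1.20 (SE 0.43, limma adjusted p = 0.0425) and Pecam1 by 0.58 (SE 0.18, limma adjusted p = 0.0215). These 3 of 3 stand beside 49.5% of all other genes that passed on this scale, in which Cdh5 itself is the lower one. None of the 3 passed in SPF PAT against SPF control, where 19.5% of the other genes did, with log2 differences of -0.82, -0.68 and -0.32 (limma adjusted p = 0.226, 0.283 and 0.226). The count of 3 fell to none without SPF control mouse 7, GF control mouse 38 or GF control mouse 39, and to 1 without SPF control mouse 2, SPF PAT mouse 26 or GF PAT mouse 42. Without SPF PAT mouse 21, 1 of the 3 passed in SPF PAT against SPF control. Pdgfrb, a marker of pericytes and other stromal cells, passed in the same directions as the differences of Cdh5, at -0.80 in SPF control against GF control (SE 0.20, limma adjusted p = 0.0107) and 0.76 in SPF PAT against SPF control (SE 0.20, limma adjusted p = 0.0224). Of all genes, 22.7% were lower in the first comparison and 14% higher in the second. Cd34 differed by -0.38 and 0.41 in the 2 comparisons and did not pass. Pdgfrb was the 1 gene of 3 stromal genes measured that passed in either comparison. Fn1 differed by -0.44 and 0.50, and Thy1 went the other way, by 0.20 and -0.27. The sum of the 3 stromal genes was 1436 to 2128 in SPF control, 1768 to 3062 in SPF PAT, 1739 to 2787 in GF control and 1835 to 2718 in GF PAT mice. None of the 3 was at a count of 0 in any mouse. The part of stromal cells in the values of Cdh5 was not tested.

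Likeness between genes was described by the mean absolute difference of their log2 values over the 12 mice, after each gene was centred on its own mean. Among the 10 genes the closest were Itgb1 and Cdh5 (0.128), Itga4 and Itgb2 (0.135), Itga4 and Vcam1 (0.141), Vcam1 and Icam2 (0.148), and Itga6 and Itgb1 (0.152). The LFA-1 chains were farther apart, at 0.323, and the VLA-4 chains at 0.573. Of 436 other genes with a mean normalized count of at least 20, Cd3e was the closest to Itgal (0.152), followed by Cd247 and Cd3d, all 3 of the T cell receptor complex. Cybb, the phagocyte oxidase subunit, was the closest to both Itga4 (0.0917) and Itgb2 (0.0981), with Ly86 and Irf5 next for Itga4 and Fcgr2b and Ly86 next for Itgb2.

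Vcam1 lay nearest to Il2ra (0.102), Ly86 and Irf5. Icam2 lay nearest to Il10ra (0.179), Icam1 and Ptpn6. Pecam1 lay nearest to Tgfbr2 (0.102), Stat5b and Stat5a, and Cdh5 to Trp53 (0.0842), Tnfrsf11a and Il1rap. Itga6 was nearest to Bcap31 (0.0851), and Itgb1 to Socs2 (0.0622), Mapkapk2 and Ikbke. Selplg had no near neighbour, with Il27ra the closest at 0.610, before Cd69 and Tnfrsf13b.

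Other adhesion and trafficking genes were drawn from a list of 67, of which 37 had values. In SPF control against GF control 7 of 37 rose, where 19.4% of all genes did, and 6 fell, where 22.7% did, with a median log2 difference of 0.07 (limma). In SPF PAT against SPF control 7 rose, where 14% of all genes did, and 5 fell, where 12.2% did, with a median of 0.09. None passed in GF PAT against GF control. The 4 with the smallest adjusted p in the first comparison were Ccl25, the epithelial chemokine of the small intestine (log2 difference -1.08, adjusted p = 0.000336), its receptor Ccr9 (1.53, adjusted p = 0.000434), Cd99, which takes part in passage through endothelium (-0.81, adjusted p = 0.00239), and the tetraspanin Cd9 (-0.92, adjusted p = 0.00355). In SPF PAT against SPF control they were Cd99 (0.86, adjusted p = 0.00445), Ccl25 (0.79, adjusted p = 0.00445), Ccr9 (-1.04, adjusted p = 0.00703) and Itga2b, the platelet integrin chain (1.32, adjusted p = 0.00806). Itga2b had low counts, of 9 to 39. The 12 calls of this comparison numbered 4 without SPF control mouse 2 or SPF PAT mouse 27, 5 without SPF control mouse 7, 6 without SPF PAT mouse 26 and 7 without GF PAT mouse 42.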

How the data were processed

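Ileal RNA of 12 mice was counted with the nCounter GX mouse immunology panel, which uses no alignment and names no genome build. The authors normalized the counts with DESeq2 and deposited log2 values, for 556 genes, while 28 entries (14 reference genes, 8 negative and 6 positive controls) hold no value. With 1 size factor per mouse (0.830 to 1.25) every value gave back a whole count within 0.01, which supplied the totals. A count of 0 is deposited as a log2 value of 0. Differences were tested on the deposited log2 values with limma 3.58.1 (lmFit and eBayes, statmod 1.5.0, R 4.3.3), with 1 mean per group and all 12 mice in 1 model, and no filter. For each comparison by itself, p-values were adjusted over all 556 genes (555 for ratios to Ptprc or Cdh5) by the Benjamini-Hochberg method, and 0.05 was the threshold. The script was tested on simulated data. Exact permutation tests used scipy 1.17.1. The genes and lists were chosen with earlier results of these data known. The text names all 10 genes, the 3 genes most like each (for Itga6 the closest alone, the rest not being reported here), the 4 other adhesion genes with the smallest adjusted p in 2 comparisons, and marker genes. Alternatives were the analysis of variance and Tukey test of the methods, an intensity trend, robust estimation, the compared groups alone, a minimum mean count of 20, 3 scalings (median, quantile and total), log2 of the count plus 1, voom on the recovered counts, and leaving out each mouse.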

Additional observations from a re-analysis of the deposited data

Results flagged for a closer look

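For 5 genes, all 3 PAT mice lay on one side of their control mean in SPF mice and all 3 on the other side in GF mice, a pattern that 27% of all 556 genes showed. The difference between the PAT effects (log2 scale, SPF minus GF) was -1.89 for Itgal, -1.07 for Itga4, -1.04 for Itgb2, 0.73 for Cdh5 and 0.58 for Itgb1. It was tested with limma and passed the threshold for none of them (adjusted p = 0.0611, 0.0776, 0.0611, 0.0611 and 0.146). Without SPF PAT mouse 21 all 5 passed, where 39% of all genes did, at -2.28, -1.33, -1.27, 0.88 and 0.75.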

How the results depend on the processing

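No paired analysis was possible because the mouse numbers differ between the groups. Of 866 alternative values of single genes, 801 kept direction and side of the threshold, 33 gained a call, 18 lost one and 14 changed sign. Calls among the 10 genes in SPF control against GF control (5) became 1 with the Tukey test, 3 with quantile normalization and 3 to 6 without 1 mouse. SPF PAT against SPF control (0) gave 2 with total-count scaling and 0 to 5 without 1 mouse. The difference between PAT effects (0) gave 2 with a trend, 3 with the minimum count, 1 with total scaling, 2 with voom and 0 to 5 without 1 mouse. The F-test (3) gave 1 with analysis of variance, median centring or quantile normalization, and 0 to 4 without 1 mouse. Relative to Ptprc, SPF control against GF control (0) gave 1 with the compared groups alone and 0 to 4 without 1 mouse, and SPF PAT against SPF control (0) gave 0 to 5. Relative to Cdh5, SPF control against GF control (3) gave 0 with the Tukey test and 0 to 3 without 1 mouse, and SPF PAT against SPF control (0) gave 0 to 1. Other adhesion genes gave 7 with the Tukey test in SPF control against GF control (13, and 10 to 15 without 1 mouse), and 4 with the Tukey test or the compared groups alone in SPF PAT against SPF control (12, and 4 to 16 without 1 mouse).

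Median centring moved the median of all genes from 0.08 to -0.36 in SPF control against GF control and from -0.02 to 0.34 in SPF PAT against SPF control, and quantile normalization to -0.14 and 0.14. Signs changed for Icam2 in SPF control against GF control (-0.00857 with median centring, -0.040 with quantile) and in SPF PAT against SPF control (0.10 and 0.13), for Itgb1 with quantile in SPF PAT against SPF control (-0.043) and in the difference between PAT effects (-0.013), and for Pecam1 in that difference with total scaling (-0.0053). In GF PAT against GF control they changed with median centring for Pecam1 (-0.17) and Selplg (-0.016). In the same comparison leaving out 1 mouse gave -0.095 to 0.086 for Pecam1, with -0.00498 without GF PAT mouse 41, and -0.40 to 1.30 for Selplg, with -0.12 and -0.38 without GF control mouse 39 and GF PAT mouse 42. The cause of these changes was not tested. The low counts of Selplg limit its precision.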
